A study of Homo sapiens with 12 samples.

Results

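ATF4 and 9 genes that act with it or under it in the integrated stress response were followed in a human cell line given insulin with or without the mTOR inhibitor Torin1. The 10 genes are ATF4, ATF5, DDIT3, DDIT4, SESN2, TRIB3, CEBPB, NUPR1, STC2 and VLDLR. They were chosen by name, and all 10 were found among the 17520 genes of the expression table. The m6A sites inside their gene bodies, on the strand of each gene, came to 105 positions of the 132871 in either of the 2 site lists.

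The cells were HEK293E, a derivative of the human embryonic kidney line HEK293. All of them were starved of serum overnight and then held in 200 nM insulin for 30 h. The group insulin+Torin1 had also been pretreated with 250 nM Torin1, which blocks the kinase mTOR in both of its complexes, and the group insulin had not. Each treatment gave 3 input libraries of mRNA selected on oligo(dT) and 3 miCLIP libraries, in which RNA crosslinked to an antibody for the base N6-methyladenosine (m6A) gives reads with substitutions at the methylated base. There was no group without insulin, so every difference here is that of Torin1 on an insulin background. The labels describe the replicates as biological triplicates of a single cell line.

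In the integrated stress response, kinases that sense lack of amino acids, unfolded proteins, viral RNA or lack of heme phosphorylate the translation factor eIF2. General translation then falls while the mRNA of ATF4, a transcription factor with upstream reading frames, is translated more. ATF4 binds DNA with C/EBP family partners and switches on genes of amino acid uptake and synthesis, feedback regulators and, through DDIT3 (the protein CHOP), genes of cell death. mTOR complex 1 is also known to raise ATF4 without eIF2 phosphorylation, and several ATF4 targets in turn restrain mTOR complex 1.

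Promoter sequences of members whose mRNA was lower with Torin1 are shown first, with short DNA words marked. The members printed are those with a marked word in the bases shown. They did not fall alike: the log2 fold change was -0.55 in ATF4 and -2.33 or lower in DDIT3, DDIT4, SESN2 and STC2. The marked words are not the C/EBP-ATF response element or the cAMP response element, which are counted below. The RefSeq promoter table (GRCh38.p14) holds windows of 250 bases before to 50 bases after annotated starts for 9 of the 10 genes, 16 windows in all. Each line below gives bases -160 to -61 relative to the start of the gene, read on the strand of the gene. Capitals mark CCAAT or its reverse complement in DDIT3, DDIT4, SESN2 and STC2, and CACGTG in ATF4.
DDIT3, chr12:57520578-57520677, minus strand: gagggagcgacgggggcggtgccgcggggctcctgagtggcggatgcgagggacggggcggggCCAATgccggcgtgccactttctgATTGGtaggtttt
DDIT4, chr10:72273764-72273863, plus strand: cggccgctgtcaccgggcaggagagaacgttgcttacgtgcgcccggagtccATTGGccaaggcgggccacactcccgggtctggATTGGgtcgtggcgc
SESN2, chr1:28259358-28259457, plus strand: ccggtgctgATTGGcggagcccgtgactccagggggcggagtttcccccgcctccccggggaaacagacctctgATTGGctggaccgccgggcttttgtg
STC2, chr5:173328475-173328574, minus strand: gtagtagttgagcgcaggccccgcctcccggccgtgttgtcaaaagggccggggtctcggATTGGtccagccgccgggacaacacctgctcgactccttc
ATF4, chr22:39520399-39520498, plus strand: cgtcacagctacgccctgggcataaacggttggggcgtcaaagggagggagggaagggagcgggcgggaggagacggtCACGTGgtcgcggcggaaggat

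On both strands of the whole windows, the CCAAT box was found in 5 of 9 members, the 4 printed above and CEBPB, and in 34.6% of all 35116 windows in the table. The E-box CACGTG was found in 1 member, ATF4, and in 7.26% of all windows. The AP-1 site TGACTCA was found in ATF5 and DDIT3 and in 4.95% of all windows. The C/EBP-ATF response element, searched as TGATGNAA, and the cAMP response element TGACGTCA were found in 0 of 9 members, against 3.62% and 1.85% of all windows. These 5 words were chosen after the expression values were known, a gene can have several windows, and a match only says that the letters are present. For words this rare over all windows, 0 matches in 16 member windows says little. The windows end 250 bases before and 50 bases after the start, so a gene without a match may hold the word elsewhere.

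The expression values were normalized between libraries by the authors and rounded, so they are given as normalized units and are compared between libraries, not between genes. Library totals were 11418114 to 11438881 units in the insulin+Torin1 libraries and 12424643 to 12528454 units in the insulin libraries. In 5 of the 6 libraries the spacing of low values gave an estimate of 7.32 to 11.8 M reads. Of the kidney lineage markers, LHX1 had 139 to 153 units in the insulin+Torin1 libraries and 131 to 137 units in the insulin libraries. Summed epithelial markers, of which 4 of 4 passed the filter, reached 899 to 930 units with Torin1 and 678 to 726 units without, with KRT8, KRT18 and CDH1 called higher and EPCAM called lower. Fibroblast and endothelial markers summed to 529 to 549 units with Torin1 and 192 to 243 units without (2 of 6 passed, COL1A1 and COL3A1). Of the blood markers, CD14 had 0 to 6 units with Torin1 and 85 to 95 units without, and PTPRC had 0 to 1 unit in every library. Summed neural markers were 500 to 512 units with Torin1 and 497 to 582 units without, with NEFM called lower and INA called higher. Hepatocyte markers were 8 to 14 units in both groups, and neither of the 2 keratinocyte markers was in the table. The part of these differences in the results below was not tested.

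With Torin1, 8 of the 9 members that could be tested fell and none rose. The falls were largest in TRIB3, DDIT4, STC2, CEBPB, DDIT3 and SESN2, smaller in ATF5 and smallest in ATF4 itself. VLDLR was not called and NUPR1 was too low to test. In bulk mRNA, fewer cells of a type and less RNA per cell cannot be told apart. Genes were called at a Benjamini-Hochberg adjusted p below 0.05 over 13842 genes, in limma on log2(value + 1), for genes with at least 10 units in at least 3 libraries. Torin1 moved most of the transcriptome by this rule: 42.5% of all tested genes were called lower and 43.4% were called higher, so a call alone says little about a member. A fall beyond 1.5-fold, tested with limma's treat, was called for 7 of the 9 members, against 22.5% of all tested genes. The median log2 fold change was -2.72 over the 9 tested members and 0.02 over all tested genes. All 3 insulin+Torin1 libraries lay below all 3 insulin libraries for 8 of the 9, as they did for 42.8% of all tested genes.

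**Figure D1:**
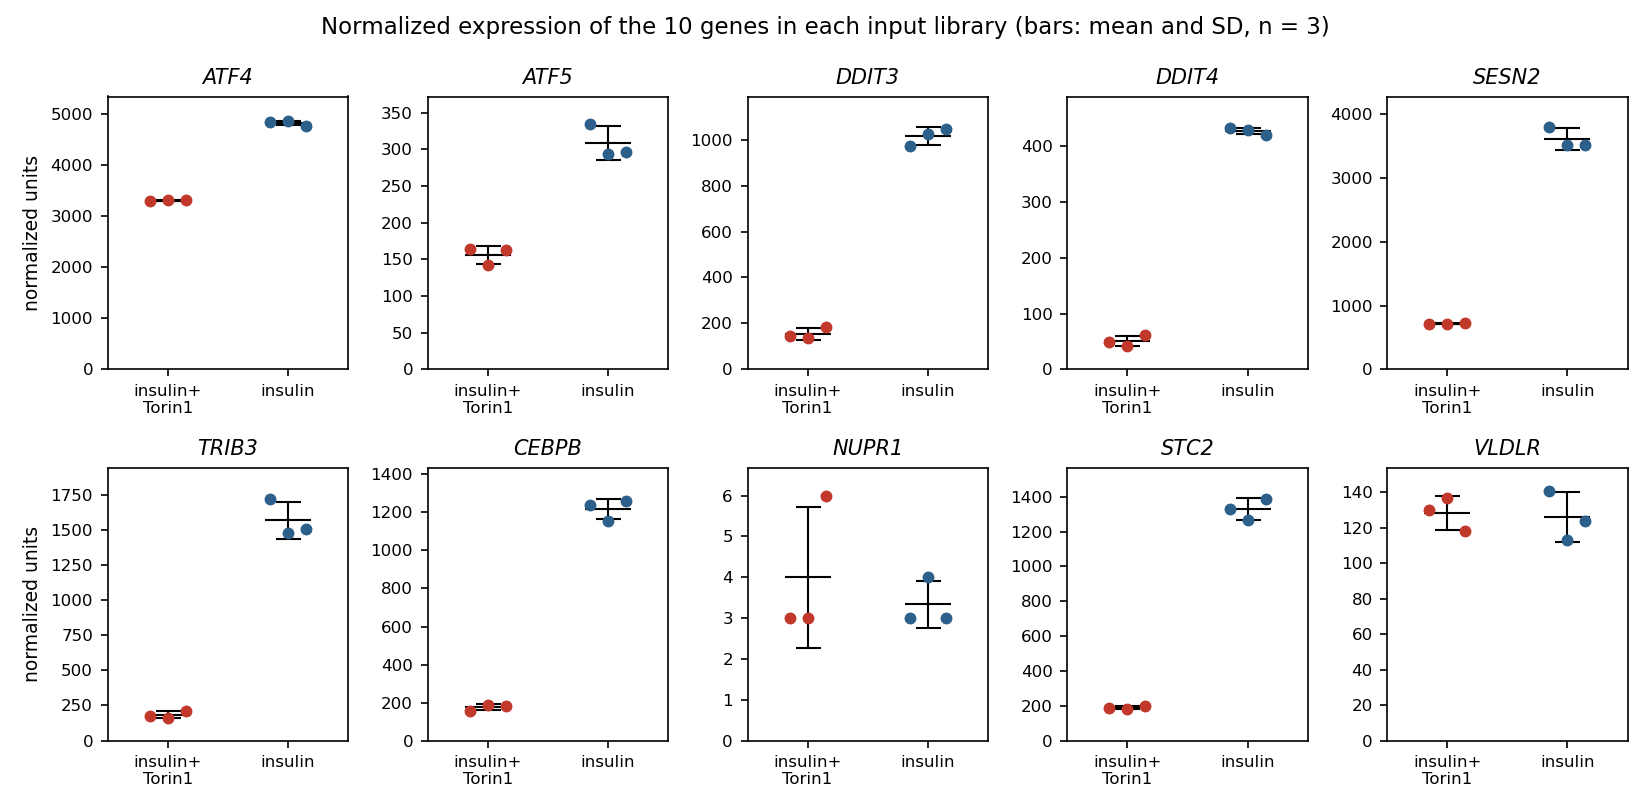
Normalized expression (y axis, normalized units, from 0, a scale per panel) of the 10 genes in each of 3 insulin+Torin1 (red) and 3 insulin (blue) input libraries, with bars for the mean and SD. In 8 panels every red point lies below every blue point. The groups overlap in NUPR1, at 3 to 6 and 3 to 4 units, and in VLDLR, at 118 to 137 and 113 to 141 units.

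The 4 transcription factors with a DNA-binding leucine zipper fell by very different amounts. ATF4, the central activator of the response, had 3297, 3318 and 3316 units in the insulin+Torin1 libraries, against 4845, 4868 and 4778 units in the insulin libraries. The 3 values of each group lay close together and the groups were far apart. The means were 3310 ± 11.6 and 4830 ± 46.8 units (SD, n = 3 each), 68.5% of the insulin level. The log2 fold change of ATF4 was -0.55 (SE 0.031, 95% interval -0.61 to -0.48, limma adjusted p = 8.1e-14), and it was not called beyond 1.5-fold. The size of this fall depended on scaling: it was -0.42 with libraries scaled to equal totals and -0.22 after quantile normalization, called in both. Among tested genes, 29.4% had a lower log2 fold change than ATF4. The tested genes whose profile over the 6 input libraries was closest to that of ATF4 included POLR2B and ATP6V1G1, with root mean square differences of 0.0153 and 0.0155 on the log2 scale.

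ATF5, a relative of ATF4 whose mRNA also carries upstream reading frames, had 164, 142 and 163 units with Torin1, against 335, 294 and 296 units with insulin alone. Its highest insulin+Torin1 library was well below its lowest insulin library. The log2 fold change of ATF5 was -0.98 (SE 0.092, limma adjusted p = 1.1e-09), and the mean with Torin1 was 50.7% of that without. ATF5 shares 599 bases of its gene body with IL4I1 and NUP62 on the other strand, and since the use of strand in the counting is not given in the sources used here, reads there cannot be told apart.

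DDIT3, which encodes CHOP, a C/EBP relative that pairs with other zipper proteins and is known for promoting cell death under lasting stress, had 143, 137 and 184 units with Torin1, against 974, 1026 and 1048 units with insulin alone. Replicate 3 was the highest in both groups, and the groups were separated several-fold. The means were 155 ± 25.6 and 1016 ± 38 units (SD, n = 3 each), a 6.57-fold lower level with Torin1. The log2 fold change of DDIT3 was -2.72 (SE 0.086, limma adjusted p = 1.4e-18). DDIT3 lies over LOC128125814 for 2769 bases on the same strand and over MARS1 for 65 bases on the other, so its reads may be shared with theirs.

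CEBPB, the C/EBP family factor that can pair with ATF4 and CHOP, had 157, 186 and 181 units with Torin1, against 1238, 1157 and 1261 units with insulin alone. No insulin+Torin1 library came near the insulin libraries. The means were 175 ± 15.5 and 1219 ± 54.6 units (SD, n = 3 each), and the log2 fold change of CEBPB was -2.80 (SE 0.069, limma adjusted p = 1.6e-20). CEBPB-AS1 covers 1487 bases of the CEBPB body on the other strand, and its reads cannot be told apart from those of CEBPB here.

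TRIB3 and NUPR1 are regulators induced under ATF4 and CHOP. TRIB3, a pseudokinase that binds ATF4 and CHOP and limits their activity as well as AKT signalling, had 175, 162 and 212 units with Torin1, against 1722, 1478 and 1511 units with insulin alone. It had the largest fall of the members, 8.58-fold by the means of 183 ± 25.9 and 1570 ± 132 units (SD, n = 3 each). The log2 fold change of TRIB3 was -3.10 (SE 0.079, limma adjusted p = 3.2e-20), and 1.42% of tested genes had a lower one. After quantile normalization TRIB3 was -3.16 and DDIT4 fell further, at -3.28. NUPR1, a small stress-induced chromatin protein, had 3, 3 and 6 units with Torin1 and 3, 4 and 3 units with insulin alone. These values overlap, they are the worth of a few reads, and no change of NUPR1 was detectable at this depth.

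SESN2 and DDIT4 encode stress-induced proteins that restrain mTOR complex 1. SESN2, or sestrin 2, is known as a leucine sensor that inhibits the complex through GATOR2. It had 709, 709 and 730 units with Torin1, against 3808, 3520 and 3518 units with insulin alone. The insulin+Torin1 libraries were nearly equal, and all insulin libraries were several-fold higher. The means were 716 ± 12.1 and 3615 ± 167 units (SD, n = 3 each), and the log2 fold change of SESN2 was -2.33 (SE 0.041, limma adjusted p = 6.5e-23).

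DDIT4, or REDD1, is known to restrain mTOR complex 1 through the TSC proteins. It had 49, 42 and 61 units with Torin1, against 433, 429 and 421 units with insulin alone. The insulin libraries of DDIT4 agreed closely and the insulin+Torin1 libraries were all low, at 11.8% of the insulin mean. The log2 fold change of DDIT4 was -3.07 (SE 0.12, limma adjusted p = 9.3e-17), and 1.44% of tested genes had a lower one.

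STC2 and VLDLR act at or beyond the plasma membrane and are induced in some forms of endoplasmic reticulum stress. STC2, a secreted glycoprotein of the stanniocalcin family, had 187, 182 and 198 units with Torin1, against 1332, 1266 and 1388 units with insulin alone. The means were 189 ± 8.19 and 1329 ± 61.1 units (SD, n = 3 each), and the log2 fold change of STC2 was -2.81 (SE 0.061, limma adjusted p = 1.8e-21). VLDLR, the receptor for very low density lipoprotein and reelin, stood apart from the other tested members. It had 130, 137 and 118 units with Torin1, against 141, 113 and 124 units with insulin alone, and the groups overlap. The log2 fold change of VLDLR was 0.03 (SE 0.12, 95% interval -0.22 to 0.28, limma adjusted p = 0.82), an interval that does not hold the change of any other tested member. After quantile normalization VLDLR was -0.35 and called lower (limma adjusted p = 0.0085), a larger fall than that of ATF4 at -0.22. Scaling to equal totals gave 0.15 for VLDLR with no call. VLDLR-AS1 overlaps 587 bases and LOC105375957 overlaps 10873 bases of the VLDLR body, so their reads may be counted with it.

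By the means, TRIB3, DDIT4 and STC2 fell 8.58-fold, 8.44-fold and 7.03-fold and ATF4 fell 1.46-fold. The other genes of the pathway were placed in 7 lists by role, chosen with earlier results of these data known. They are given as counts in the same fit, where 42.5% of all tested genes were called lower and 43.4% higher. Of 25 tested ATF4 target enzymes and transporters, 24 fell, none rose and 1, PYCR1, was not called, with a median log2 fold change of -1.62. The cystine transporter SLC7A11 had 168, 169 and 171 units with Torin1, against 3919, 3909 and 4173 units with insulin alone, a log2 fold change of -4.55 (SE 0.048). The glutathione-degrading enzyme CHAC1 changed by -4.32 (SE 0.20) and the glycine transporter SLC6A9 by -3.98 (SE 0.079) on the log2 scale. The asparagine synthetase ASNS, named after its values were seen, changed by -2.43 (SE 0.038).

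Upstream of ATF4 the lists held genes that rose and genes that fell, as did all tested genes, with 43.4% called higher and 42.5% lower. Of the 9 eIF2 kinases and their regulators, 5 rose and 4 fell, with a median of 0.51, and EIF2AK1, among the falls at -0.14, turned to 0.17 after quantile normalization. EIF2AK4, the amino acid sensing kinase GCN2, had 1807, 1743 and 1830 units with Torin1, against 450, 458 and 448 units with insulin alone, a log2 fold change of 1.99 (SE 0.046). IMPACT, an inhibitor of GCN2 activation, rose by 1.29 (SE 0.058), and KIAA0141, now named DELE1, which relays mitochondrial stress to the kinase HRI, rose by 0.90 (SE 0.046). EIF2AK3, the endoplasmic reticulum kinase PERK, named after its values were seen, changed by -1.41 (SE 0.063). Of the 8 subunits of eIF2 and its exchange factor eIF2B, 4 rose and 4 fell, with a median of -0.13 that turned to 0.03 after quantile normalization. The subunits EIF2B2, EIF2S2 and EIF2S1 changed by -1.41, -1.10 and -1.09 on the log2 scale, and EIF2B3 and EIF2B5, named after their values were seen, by 1.06 and 0.88. Of the 5 subunits of the phosphatases that reverse eIF2 phosphorylation, 4 fell and PPP1CC rose. Their regulatory subunits PPP1R15B, or CReP, and PPP1R15A, or GADD34, which is itself an ATF4 target, changed by -2.06 (SE 0.034) and -1.93 (SE 0.040), and the catalytic subunit PPP1CA by -0.73 (SE 0.039).

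Among 17 other ATF, C/EBP and partner zipper factors, 10 fell, 5 rose and 2, CEBPA and BATF3, were not called, with a median of -0.87. Over all tested genes 42.5% were called lower and 43.4% higher. The small MAF protein MAFG, which pairs with NRF family factors, changed by -2.87 (SE 0.037), JDP2 by -2.62 (SE 0.19) and CEBPG, a known partner of ATF4, by -1.77 (SE 0.040). A list of 16 genes joined other stress-induced ATF4 or CHOP targets with the paralogs SESN1, SESN3, TRIB1 and TRIB2 of members. In it, ADM2 was too low to test, 10 fell, 4 rose and TRIB1 was not called, with a median of -0.60. The paralogs SESN1 and TRIB2 were among the 4 that rose, and SESN3 was among the 10 that fell. The secreted stress hormone FGF21 had 1, 1 and 3 units with Torin1, against 114, 119 and 100 units with insulin alone, and HMOX1 and INHBE changed by -3.42 (SE 0.13) and -2.80 (SE 0.15). Of 7 genes of ATF4 protein turnover, 4 rose, 2 fell and RBX1 was not called. The largest rise was in PRKAA1, a catalytic subunit of AMPK, at 1.39 (SE 0.050), followed by CUL1 at 0.75 (SE 0.045) and BTRC, the ubiquitin ligase subunit that recognises ATF4, at 0.37 (SE 0.050). The 2 falls, EP300 and FBXW11, became 1 when libraries were scaled to equal totals, after quantile normalization or without insulin+Torin1 replicate 1.

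**Figure D2:**
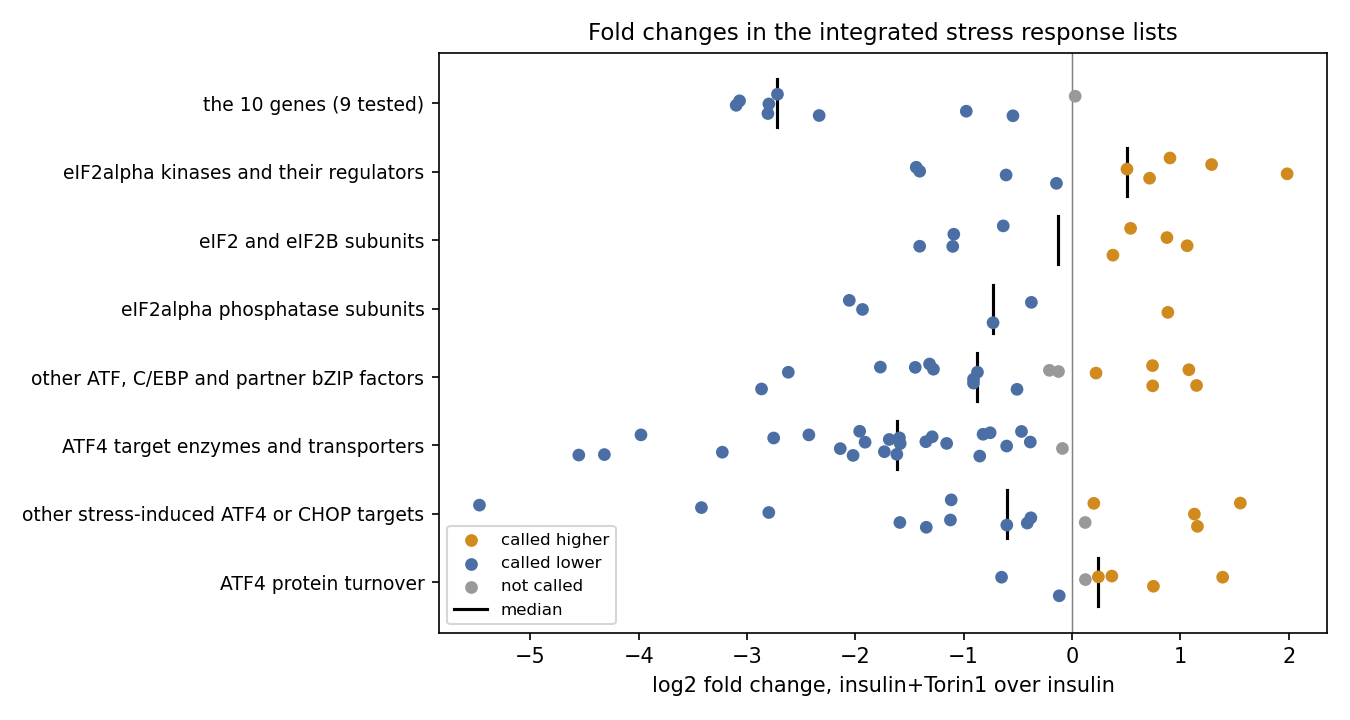
Log2 fold changes, insulin+Torin1 over insulin (x axis), of the 10 genes and of 7 pathway lists (y axis); each point is a tested gene, coloured by its limma call, and vertical bars are medians. The 10 genes and the ATF4 target enzymes and transporters lie mostly left of 0, with medians of -2.72 and -1.62, and the lists of kinases and of ATF4 protein turnover have medians of 0.51 and 0.24.

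The m6A data were 1 list of sites per treatment. Each position was listed under 1 replicate with the reads over it, the substituted reads and the 5 bases around it, and a position without a substituted read was not listed at all. Absence from a list is therefore not a level of 0. The replicates contributed very unequally: replicates 1, 2 and 3 held 56298, 1552 and 5728 sites of the insulin+Torin1 list and 50656, 39670 and 6345 sites of the insulin list. Site numbers under replicate 1 are for this reason given beside the main site numbers. Whether the reads over a position come from the listed replicate alone is not given in the sources used here, and they were taken as that library's. The listed 5 bases are printed here with the methylated adenosine in a capital, and positions are those of hg38.

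The members carried 34 sites in the insulin+Torin1 list and 101 in the insulin list, 33.7% as many, where the lists as a whole held 63578 and 96671 sites, or 65.8%. Under replicate 1 alone the members had 29 and 73 sites, while all genes and regions together had 111% as many with Torin1. Of the 9 members with any site, 8 had fewer in the insulin+Torin1 list, against 59.0% of the 10175 genes with a site in either list. Among sites listed under replicate 1 it was again 8 of 9, against 33.5% of 9536 genes. No test was made on these numbers, since there is 1 list per treatment.

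SESN2 had the most sites, 7 in the insulin+Torin1 list and 21 in the insulin list, and 5 and 14 under replicate 1. TRIB3 and STC2 had 3 and 16 sites each, DDIT4 had 2 and 10, and ATF5 had 1 and 8. Under replicate 1, TRIB3 had 3 and 9, STC2 had 2 and 14, DDIT4 had 2 and 6 and ATF5 had 1 and 6. ATF4 had 7 and 12 sites, CEBPB had 7 and 11 and DDIT3 had 3 and 7, the highest shares of the insulin number among the members with insulin sites. Under replicate 1 these were 6 and 8 in ATF4, 6 and 11 in CEBPB and 3 and 5 in DDIT3, again the highest shares. VLDLR had 1 site in the insulin+Torin1 list, agAca at chr9:2652906 with 2 of 2 reads substituted, and none listed in the insulin list. NUPR1 had no listed site on either strand. On the opposite strand, which was left out, ATF5 and CEBPB had 1 further site each in the insulin list.

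Positions were placed by their distance along each gene body, whose length sets how much of it the last 1000 nt cover. ATF4 (chr22:39520559-39522686, 2128 nt) had 13 positions between 840 and 1856 nt from its start, 11 of them within 1000 nt of its annotated end. All 7 positions of DDIT3 (chr12:57516588-57520517) and 13 of 16 of TRIB3 (chr20:380760-397559) lay within 1000 nt of the end, as did 7 of 11 of CEBPB (chr20:50190583-50192690, 2108 nt). In SESN2 (chr1:28259518-28282491) it was 7 of 23, in DDIT4 (chr10:72273924-72276036, 2113 nt) 5 of 10, in ATF5 (chr19:49928906-49933935) 2 of 8 and in STC2 (chr5:173314723-173328414) 1 of 16. Distances run along the genome with introns included, and exon and UTR annotation was not used here. The commonest 5-base words at member positions were ggAct at 16 positions, ggAca at 13, gaAct at 10 and agAct at 9. The word GGAC stood at 35.3% of member sites in the insulin+Torin1 list and 37.6% in the insulin list, near the 32.9% and 31.5% of all sites.

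**Figure D3:**
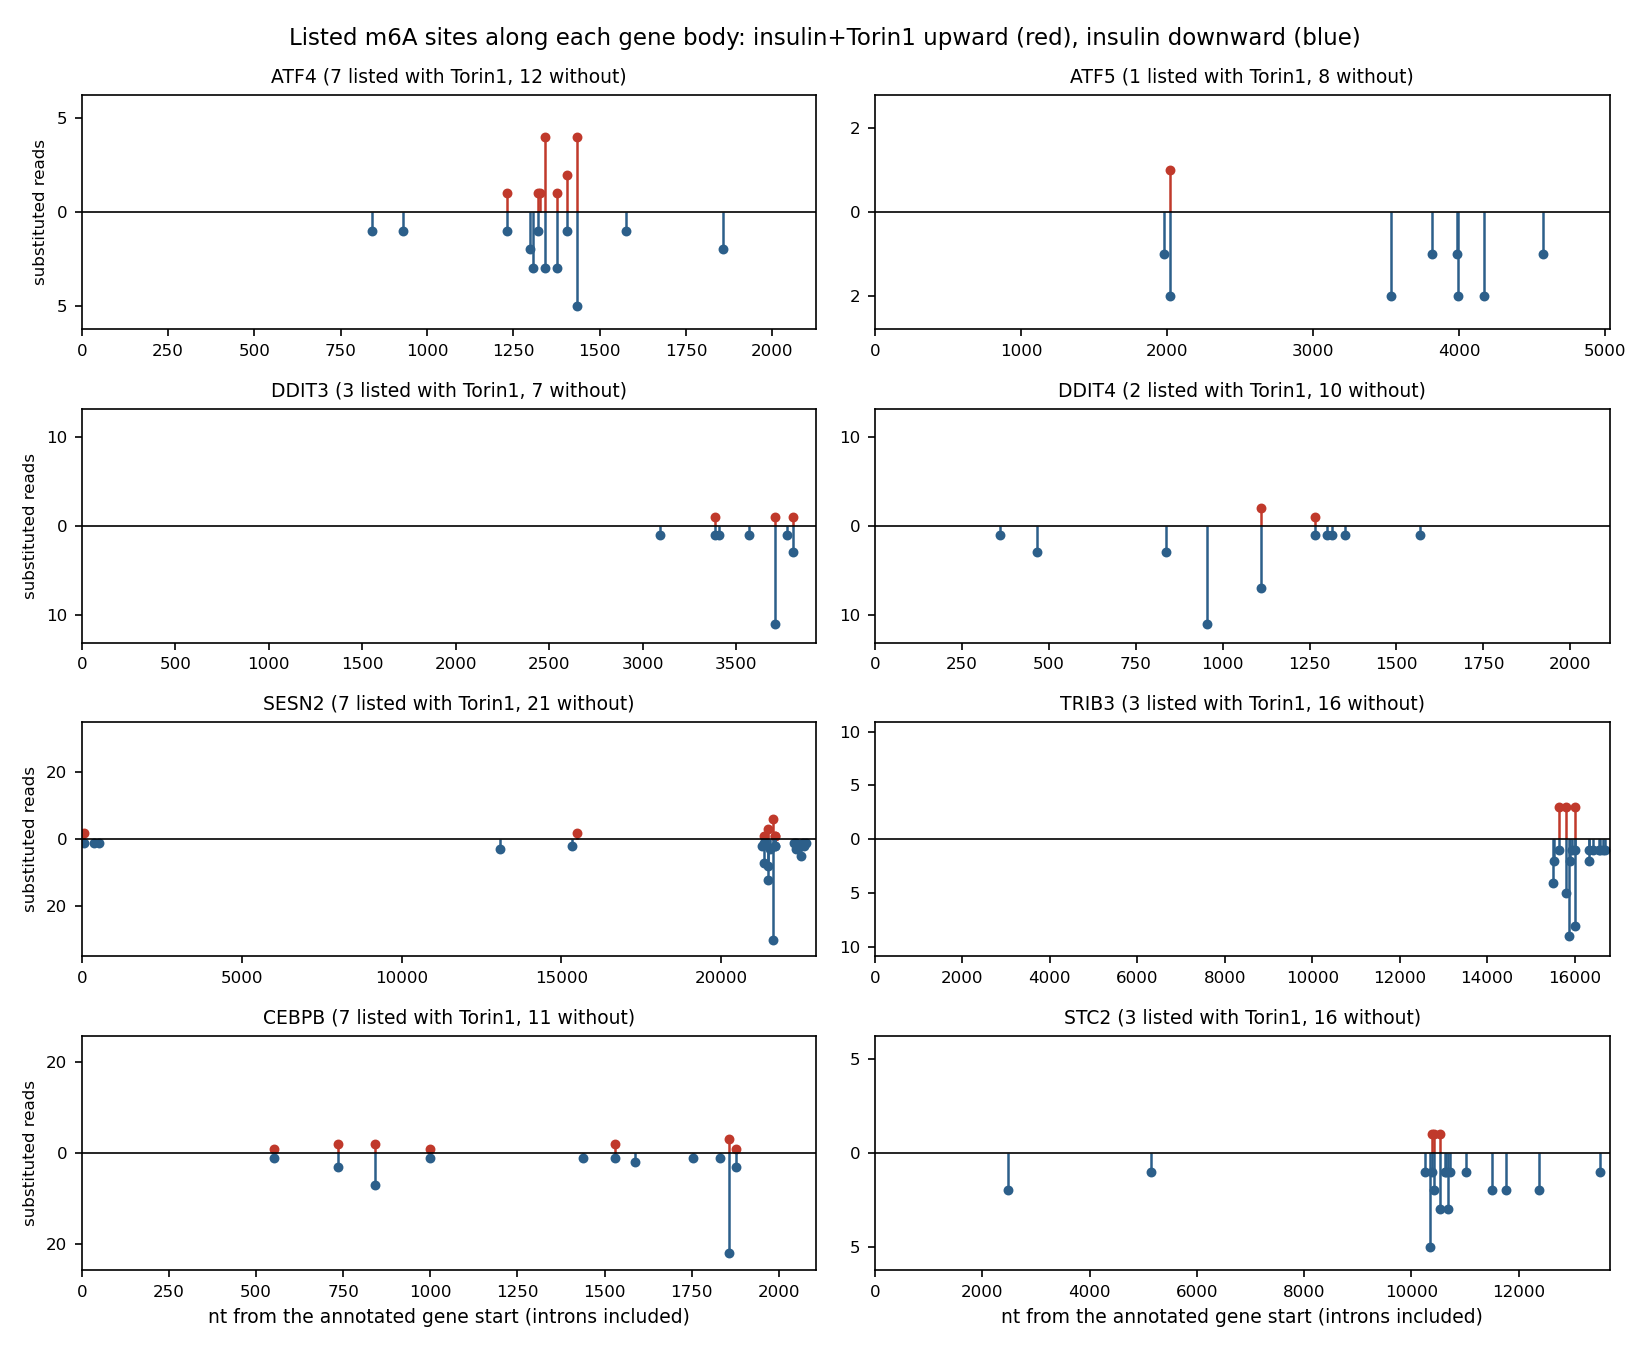
Listed m6A sites of the 8 members that had sites in both lists, by distance from the annotated gene start in nt (x axis) and substituted reads (y axis, a scale per panel), with insulin+Torin1 drawn upward in red and insulin downward in blue. In TRIB3 and STC2, 3 red sites stand over 16 blue ones, and in SESN2 the tallest stem in both directions is the same position, with 6 and 30 substituted reads.

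Sites of the insulin+Torin1 list were mostly a subset of the insulin sites in these genes. Of the 34 member sites with Torin1, 30 were also in the insulin list, a share of 88.2%, and these were 29.7% of the 101 insulin sites. Over all sites the shares were 43.1% of the insulin+Torin1 list and 28.3% of the insulin list. All sites include those of genes whose mRNA rose or did not change with Torin1. The shares were not worked out for other genes with falls like those of the members, so a high share is not known to be particular to the members. Many sites rested on little: 18 of 34 and 52 of 101 member sites had 1 substituted read, and over all sites it was 59.6% and 61.6%. With at least 3 substituted reads the members had 8 sites in the insulin+Torin1 list and 29 in the insulin list.

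Genes with lower mRNA also had fewer listed sites in general, and the members are read against that. Among 4777 genes with at least 5 insulin sites, the median number of sites with Torin1 was 57.1% of that with insulin alone. It was 37.5% in the 1479 of these genes that were called lower beyond 1.5-fold and 19.1% in the 186 genes with a log2 fold change of -2 or below. Under replicate 1 alone, in genes with at least 5 insulin sites there, these medians were 56.1% (1044 genes) and 33.3% (138 genes), and 100% in the 1290 genes not called beyond 1.5-fold. The members with falls of that size had 18.8% in TRIB3 and STC2, 20% in DDIT4, 33.3% in SESN2, 42.9% in DDIT3 and 63.6% in CEBPB. Under replicate 1 they had 14.3% in STC2, 33.3% in TRIB3 and DDIT4, 35.7% in SESN2, 54.5% in CEBPB and 60% in DDIT3.

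Reads over shared sites gave a second view of the same transcripts in the miCLIP libraries. Over sites listed under replicate 1 in both lists, ATF4 had 569 reads in the insulin+Torin1 list and 601 in the insulin list, a ratio of 0.947. The ratio was 0.842 in ATF5, 0.5 in DDIT4, 0.469 in SESN2, 0.427 in CEBPB, 0.412 in TRIB3, 0.345 in STC2 and 0.29 in DDIT3. Over the 16264 such sites of all genes the median ratio per site was 1.86, so the insulin+Torin1 replicate 1 list carried more reads per site. Relative to that median, the members stood at 15.6% in DDIT3 to 50.8% in ATF4. Each member ratio pools the reads of its sites, and the pooled ratio over all such sites was higher than the median, at 2.2. The mRNA of ATF4 stood at 68.5% of insulin and that of DDIT3 at 15.2%. The shares of reads and mRNA were 45.2% and 50.7% in ATF5, 26.8% and 11.8% in DDIT4 and 25.2% and 19.8% in SESN2. They were 22.9% and 14.3% in CEBPB, 22.1% and 11.7% in TRIB3 and 18.5% and 14.2% in STC2. Taken as reads of the listed replicate, the read ratios come from 1 library per treatment and from 1 to 6 sites per member, and no test was made.

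**Figure D4:**
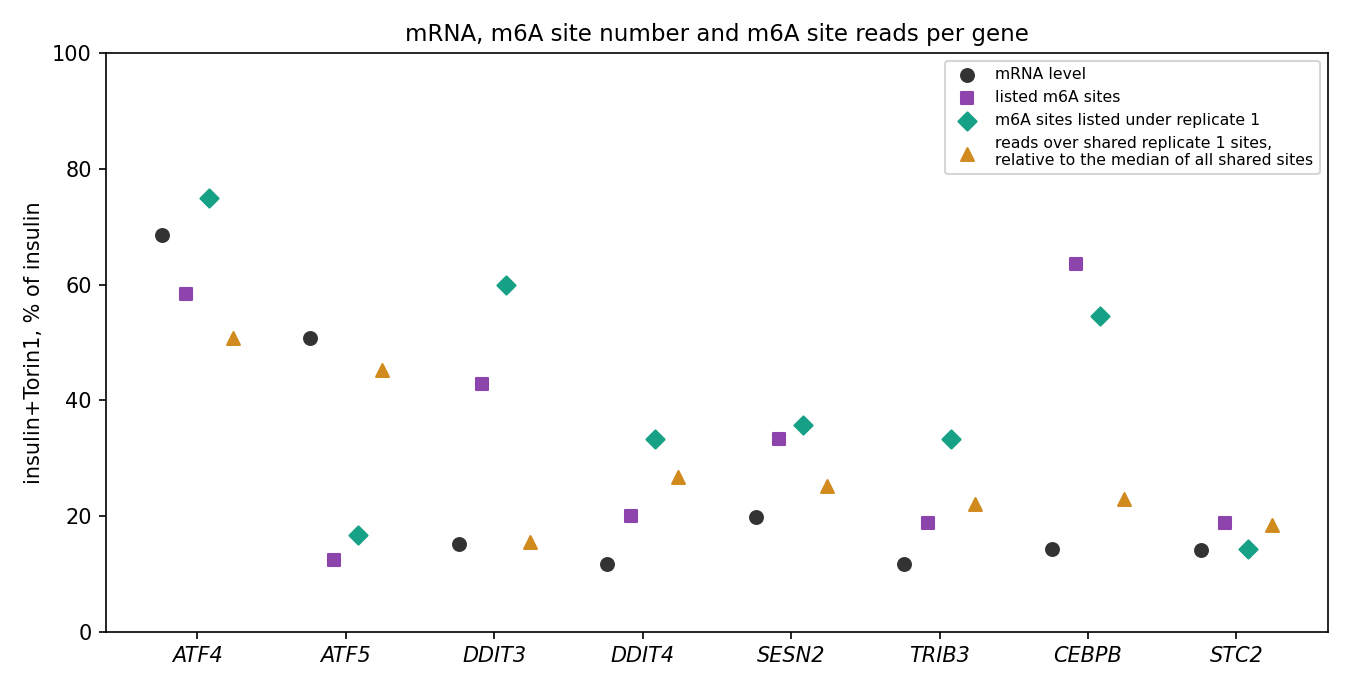
The insulin+Torin1 value as a percentage of the insulin value (y axis) for 8 members (x axis): mean mRNA level of 3 libraries each, number of listed sites, number of sites listed under replicate 1, and reads over shared replicate 1 sites divided by the median of all such sites. Every plotted value is below 100%, and in CEBPB the mRNA stands at 14.3% while the number of sites stands at 63.6%.

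The substituted fraction, that is the share of the reads covering a site that carry a substitution, was compared at 20 of the 30 shared member sites, those with at least 10 reads in each list. Fisher's exact test, two-sided and adjusted over all 16496 such sites, compares the reads listed at a position, taken as those of 2 libraries, and not the treatments, and intervals are exact 95% Clopper-Pearson intervals that cover counting error only. No member site was called (smallest adjusted p = 0.49), and 2 of the 20 had an unadjusted p below 0.05, against 7.45% of all sites tested. Over all sites 0.236% were called lower and 0.00606% higher in the insulin+Torin1 list. The fraction was lower with Torin1 at 11 member sites and higher at 9, with a median difference of -0.78 percentage points. Over all tested sites 69.8% were lower and the median difference was -2.16 points. Every listed site has at least 1 substituted read, so at few reads only a higher fraction can be listed. Over shared replicate 1 sites the members had fewer reads with Torin1, at ratios of 0.29 to 0.947. The median ratio of all such sites was 1.86. Members and all sites therefore differ in depth, and the part of depth in these numbers was not tested.

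The site of CEBPB with the most substituted reads, ggAct at chr20:50192440, lay 250 nt before the end of the gene. It had 3 of 55 reads substituted with Torin1, or 5.45% (1.14% to 15.1%), and 22 of 118 with insulin alone, or 18.6% (12.1% to 26.9%). The Fisher exact p was 0.021 and the adjusted p 0.49. The strongest SESN2 site, gaAct at chr1:28281146, had 6 of 74 reads substituted with Torin1, or 8.11% (3.03% to 16.8%), and 30 of 150 with insulin alone, or 20% (13.9% to 27.3%), with an exact p of 0.032 and an adjusted p of 0.57. The intervals of the treatments overlap at both sites.

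The other 18 shared sites had exact p-values of 0.12 or above and none was called. In DDIT3, gaAca at chr12:57516808 had 1 of 19 reads substituted with Torin1 and 11 of 66 with insulin alone. DDIT3 also had 1 of 15 and 3 of 69 at tgAcc, chr12:57516715, and 1 of 13 and 1 of 27 at tgAct, chr12:57517129. SESN2 had 1 of 24 with Torin1 and 7 of 57 with insulin alone at ggAct, chr1:28280844, and 3 of 51 and 8 of 111 at ggAca, chr1:28280969. The fraction was lower with Torin1 at the strongest DDIT3 site and at all 3 tested SESN2 sites, and higher at the other DDIT3 sites. CEBPB had 1 of 13 and 1 of 67 at ggAct, chr20:50191134, 2 of 20 and 7 of 49 at gaAct, chr20:50191422, and 1 of 70 and 3 of 130 at taAct, chr20:50192460. In DDIT4, ggAct at chr10:72275034 had 2 of 44 and 7 of 73, and in ATF5, agAct at chr19:49930927 had 1 of 16 and 2 of 19. ATF4 is the member with the deepest sites: taAca at chr22:39521991 had 4 of 117 reads substituted with Torin1, or 3.42% (0.939% to 8.52%), and 5 of 122 with insulin alone, or 4.10% (1.34% to 9.31%). The insulin value of that ATF4 site was listed under replicate 2 and the Torin1 value under replicate 1. At gaAcc, chr22:39521962, ATF4 had 2 of 250 and 1 of 188 reads substituted, and at agAct, chr22:39521934, it had 1 of 163 and 3 of 152. At tgAca, chr22:39521899, ATF4 had 4 of 88 and 3 of 158, and at tgAcc, chr22:39521878, it had 1 of 68 and 1 of 103. The fraction was higher with Torin1 at both TRIB3 sites, with 3 of 21 and 1 of 39 at ggAct, chr20:396401, and 3 of 60 and 5 of 119 at ggAcc, chr20:396566. STC2 had 1 of 14 and 1 of 27 at ggAca, chr5:173318027. The fractions at the 5 tested ATF4 sites ranged from 0.613% to 4.55% with Torin1 and from 0.532% to 4.10% with insulin alone.

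**Figure D5:**
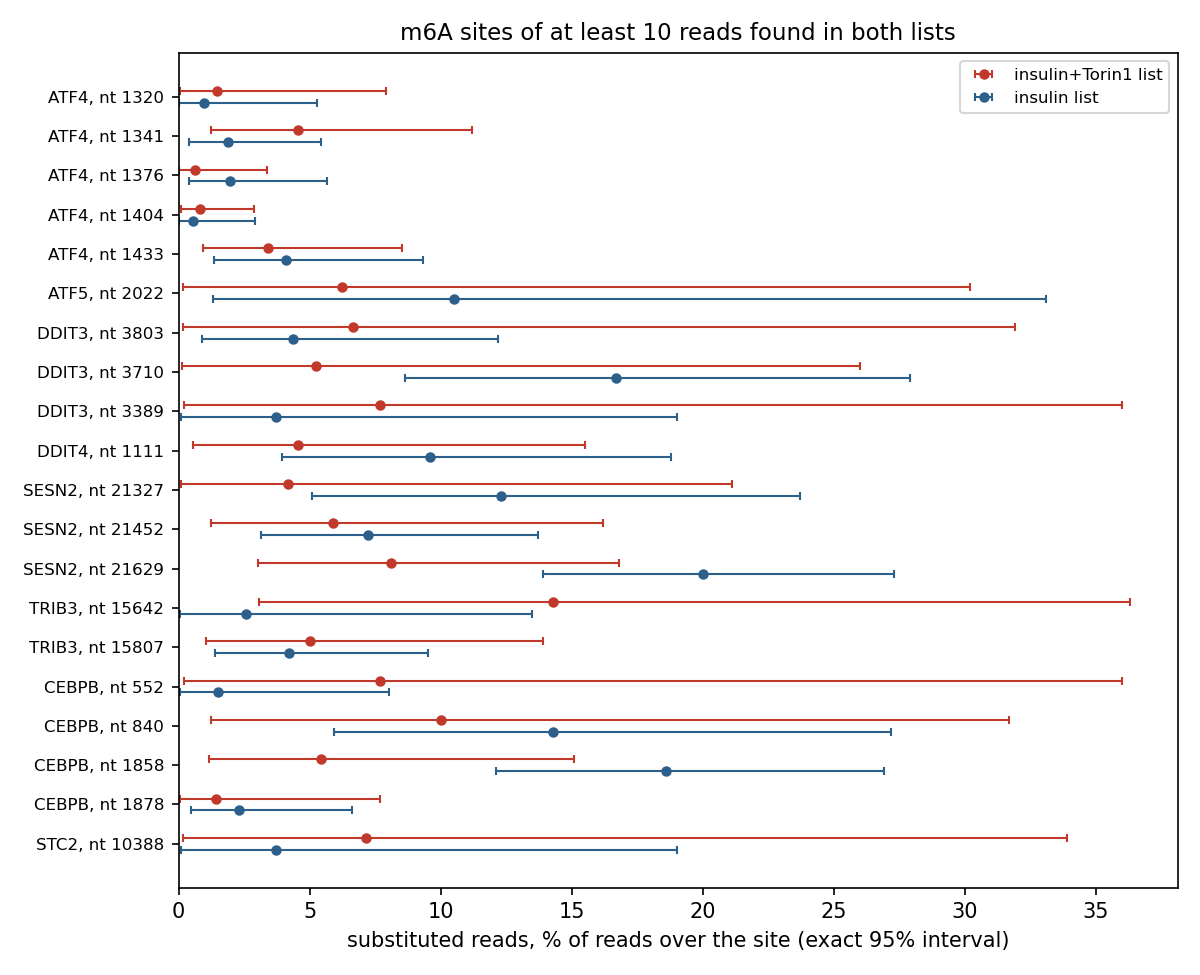
Substituted reads as a percentage of reads over the site (x axis) at the 20 member sites with at least 10 reads in both lists (y axis, gene and nt from its start), with exact 95% intervals; insulin+Torin1 in red above insulin in blue. All 20 pairs of intervals overlap, and the largest gaps are at CEBPB nt 1858 and SESN2 nt 21629.

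Some of the strongest member sites were in the insulin list only. In DDIT4, gaAct at chr10:72274879 had 11 of 59 reads substituted (18.6%, 9.69% to 30.9%), and in TRIB3, ggAct at chr20:396630 had 9 of 63 (14.3%, 6.75% to 25.4%). In STC2, gaAcc at chr5:173318062 had 5 of 17 (29.4%, 10.3% to 56.0%). The depth over these positions with Torin1 is unknown, since they are not in that list, so no difference in fraction can be stated there.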

How the data were processed

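Expression was measured in 6 input libraries and m6A in 6 miCLIP libraries of HEK293E cells, grouped from the sample labels; groups of 3 set the precision. Per the submitters' processing notes, the build was hg38 and the tools included STAR, BWA 0.7.1, DESeq and DESeq2 1.22.2, with no roles given. The authors deposited expression values that are normalized and rounded, treated here as a score, with no count test, and for each m6A site the authors deposited the substituted fraction with its reads. The members and lists were chosen with earlier results of these data known. Expression was tested in R 4.3.3 with limma 3.58.1 (variance trend, pseudocount 1, all 6 libraries, no replicate block), which understates the change of low genes. Shared sites were tested with SciPy 1.17.1. Both procedures were tested on simulated data. All members are named; per list, up to 3 called genes with the largest change in the list's main direction; the 3 profiles closest to ATF4; per member, the site with the most substituted reads in each list and every shared site of at least 10 reads. A few genes that this rule or the marker lists cover are not reported here. Gene bodies and promoters are those of RefSeq GRCh38.p14. All 1990 sites inside promoter windows had their 5 bases centred on the listed position. Alternatives were the pseudocount, the filter, scaling, variance trend, replicate block, read minimum, strand, gene end and leaving out libraries.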

Additional observations from a re-analysis of the deposited data

How the results depend on the processing

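Scaling to equal totals shifted the all-gene median by 0.125 (log2), with 44% of calls lower instead of 49.5%. The members called lower numbered 8 in every expression setting except quantile normalization, where VLDLR made it 9; 7 were called beyond 1.5-fold in every setting. FBXW11 reversed to 0.00769 with equal totals and 0.15 after quantile normalization, EIF2AK1 to 0.17 and the median of eIF2 and eIF2B subunits to 0.0274 after quantile normalization. ATF4 protein turnover genes called lower numbered 1 instead of 2 with equal totals and with quantile normalization, and 1 to 2 when 1 library was left out; the cause was not tested. Member sites numbered 8 (insulin+Torin1) and 29 (insulin) with at least 3 substituted reads, and 5 to 34 and 28 to 100 when 1 replicate was left out, lowest without replicate 1; fewer listed sites enter by construction. Counting sites on either strand, chosen after seeing the data, gave 34 and 103. The smallest adjusted p of a member site was 0.40 to 0.51 with other read minimums or replicate 1 alone. With the replicate number as a block, 8 members were called lower and 5867 and 5983 genes lower and higher. Input libraries with the same replicate number correlated at -0.0234, 0.00972 and -0.00399 in their deviations from the group means. No pairing by number was seen there, which does not exclude one, and the miCLIP libraries were not checked. Depth limits NUPR1 and the sites with few substituted reads.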

Other observations

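The paralogs of 2 members had values of their own in the same fit, and are given here although they were singled out after their values were seen. Of the sestrins, which share the inhibition of mTOR complex 1 with SESN2, SESN1 had 2021, 1958 and 2010 units with Torin1, against 901, 900 and 881 units with insulin alone, a log2 fold change of 1.16 (SE 0.040), and SESN3 changed by -0.41 (SE 0.038). SESN2, at -2.33, and SESN1 thus moved in opposite directions. Of the tribbles pseudokinases, TRIB2 had 98, 97 and 91 units with Torin1, against 44, 26 and 28 units with insulin alone, a log2 fold change of 1.55 (SE 0.19), while TRIB1 was not called at 0.12 (SE 0.078) and TRIB3 stood at -3.10. TRIB1 was called higher, at 0.25, when libraries were scaled to equal totals.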
